A study of Mus musculus with 16 samples.

Results

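The genes described here lie on mouse chromosome 9 between 40 and 50 Mb (build mm9, as the array's annotation gives positions). They were chosen in earlier work on these data because many of them differed between genotypes, so genotype differences are given as a description, with no test. The window holds 260 non-control probes for 169 gene names, after 1 gene was left out. A gene counted as a member if 1 of its window probes passed the background flag on each of the 4 arrays in some group, and each member was represented by its brightest such probe. That left 119 members of 23032 genes measured in all, 83 with a gene symbol and 36 with a clone or model name, of which 14 are long intergenic non-coding RNAs. Of the members, 110 were well above background on all 16 arrays. The other 50 names fell below the filter and have no value here; they include Cd3d, Cd3g, Cxcr5, Apoa1, Apoa4, Apoa5, Htr3b, Treh, Tecta and Pou2f3.

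Whole-brain RNA from male mice was measured on 1-colour Agilent arrays. The study compared mice deficient in Slc5a8, which carries lactate and ketone bodies into cells together with sodium, with wild type, young and old. The 4 groups were wild type at 4 months, Slc5a8-deficient at 4 months, wild type at 18 months and Slc5a8-deficient at 18 months, with 4 arrays each, all given as C57BL/6J. How the deficiency was made, how the deficient line was bred and whether the animals were littermates is not given in the sources used here.

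The stretch is dense in genes of different kinds that share only their position. It carries adhesion molecules of the nervous and immune systems (Ncam1, Cadm1, Thy1), the T cell receptor's CD3 chains, a cluster of apolipoproteins, the amyloid-processing protease Bace1, the sorting receptor Sorl1, receptors for dopamine and serotonin, and many household genes. Neighbours need not be expressed in the same cells.

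The array measures a gene through a probe of 60 bases, and some results below depend on which stretch of a transcript a probe reads. The central 30 bases (16 to 45) of a choice of probes are given, those of 5 genes whose 8 deficient arrays did not overlap the 8 of wild type and those of 4 genes with a pair of probes, alike for Fxyd2 and unlike for the others. They are written 5′ to 3′ as in the array's annotation, with the probe's position on mm9 and its strand. For the non-coding 2900052N01Rik, whose probe spans an intron, all 60 bases are shown. Capitals mark the stretch of 9 bases that both Fxyd2 excerpts share.
Tmem25, chr9:44601943-44602002, minus strand: aacctgaaaacgactggcgaccatcagagt
Ccdc153, chr9:44054861-44054920, plus strand: gtcaagcctcactgggatgcaaatgtgctg
Sc5d, chr9:42062857-42062916, minus strand: attgtacttcctatacagaggcaccttact
Nxpe4, chr9:48207362-48207421, plus strand: acattgctctttgccgattggaagttagga
Zbtb16, chr9:48462419-48462478, minus strand: acaggaccttgctcttttccttttgtaatg
Fxyd2 first probe, chr9:45218281-45218340, plus strand: atccccctggttttcaatgaaTCCTTGTAT
Fxyd2 second probe, chr9:45218302-45218361, plus strand: TCCTTGTATaagcaactgccaatgaaatcg
Sorl1 first probe, chr9:41772997-41773056, minus strand: ctcggctaggtttccaagtcactgatttct
Sorl1 second probe, chr9:41776572-41776631, minus strand: taaaagatgcactttgagttgcaatatgtt
Ift46 first probe, chr9:44598913-44598972, plus strand: acagactgctctgtcaggttgtgatggaat
Ift46 second probe, chr9:44600737-44600796, plus strand: ggcttgattgactccaggacaaatacgtag
Rps25 first probe, chr9:44216951-44218094, plus strand: ggtctcaaagcacagagcccaagtaattta
Rps25 second probe, chr9:44218247-44218306, plus strand: tttattgaatcaaatgaatgggtgcatctg
2900052N01Rik, chr9:46721808-46728651, plus strand: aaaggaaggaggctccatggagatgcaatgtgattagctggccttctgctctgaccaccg

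Levels are log2 processed signals set against the 75th percentile within each array, and differences are log2 differences ± SE from limma's fit of the 4 groups with n = 4 arrays each. A gene is called when its Benjamini-Hochberg adjusted p over all 23032 genes was under 0.05. Between 58.4% and 66.1% of spots were well above background on each array. Array 1 of the young deficient group stood apart over the whole array, at 97.2 on a first principal component that held 29.5% of the variance, where no other array exceeded 26.5. The deficient arrays shared 1 slide and the wild-type arrays another, which means that genotype and slide cannot be told apart. On the deficient slide the young arrays filled row 1 and the old arrays row 2, and on the wild-type slide the reverse, so age within a genotype, the genotype difference at one age, and the interaction cannot be told apart from the row; the averages over age or genotype balance the rows. Markers of neurons (5), astrocytes (4), oligodendrocytes (4) and microglia (4) all passed the background flag on 16 of 16 arrays. Some markers of other tissues differed between genotypes, and some varied widely within a group. Of 4 olfactory epithelium markers 0 were higher and 3 were called lower in the average (median -1.25), with summed levels of 1.89 to 2.54 in young wild type, 0.09 to 0.59 in young deficient, -1.26 to 0.94 in old wild type and -1.37 to -1.24 in old deficient. Of 5 choroid plexus markers 0 were higher (median -0.48, 0 called). Of 4 red blood cell markers 3 were called lower at 18 months (median -2.04), and 4 pituitary markers had medians of -1.60 at 4 months and 1.66 at 18 months with 0 called. The part of these tissues in the members' differences was not tested. The probe for Slc5a8 itself passed the background flag on 0 of 16, so it checks no label.

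Array 4 of the old deficient group lay between the genotypes at most of the members that differed. For each member called in the genotype difference averaged over both ages, an array's place was set on the linear signal so that 0% is the mean of the wild-type arrays and 100% the mean of the deficient arrays, leaving the array itself out of its group's mean. Over the 26 called members, the median place of this array was 58.5%, with quartiles of 45.4% and 70.9%. The medians of the other 7 deficient arrays lay between 101.3% and 109.4%, and those of the 8 wild-type arrays between -18.7% and 7.0%. It lay nearest the wild-type mean of the 4 old deficient arrays at 23 of 26 members, and its place was under 70% at 19 of 26, against 0 to 7 of 26 for each other deficient array (the limit of 70% was chosen after the values were seen). Array 1 of the young deficient group, with 7 such members, had the widest quartiles of the deficient arrays, 59.1% and 139.5%.

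The same array was placed at called genes elsewhere. In the next 10 Mb of the chromosome, 50 to 60 Mb, its median place was 50.8% over 19 called genes, and the other 7 deficient arrays lay between 102.9% and 120.5%. Over the 662 called genes not placed on chromosome 9, its median was 103.5%, inside the range of 83% to 118.5% of the other deficient arrays. These 662 take in the windows of chromosomes 8, 10 and 17 given next and any gene without a position. At the 6 called genes within 83 to 93 Mb of chromosome 10, where Slc5a8 lies, it was 47.0%, with the others between 82.2% and 130.5%. In the window of 70 to 80 Mb on chromosome 8, also rich in called genes, several arrays lay apart: over 31 genes its median was 68.5%, beside 67.1%, 73.3% and 69.1% for old array 1 and young arrays 2 and 3 and 116.1% to 131.4% for the remaining 4. In the first 10 Mb of chromosome 17, over 21 called genes, old array 4 was at 131.5%, while old arrays 2 and 3 and young arrays 2 and 4 were at 72.4%, 57.0%, 67.7% and 65.2%. On the rest of chromosome 9, over 27 genes, it was at 80.7%, beside 71.4% and 74.6% for old arrays 2 and 3 and 102.5% to 141.0% for the other 5. These places describe the arrays, and what sets them was not tested. The genotype label of array 4 could not be checked from Slc5a8, and the old and averaged genotype values below count it as deficient, as labelled.

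**Figure D1:**
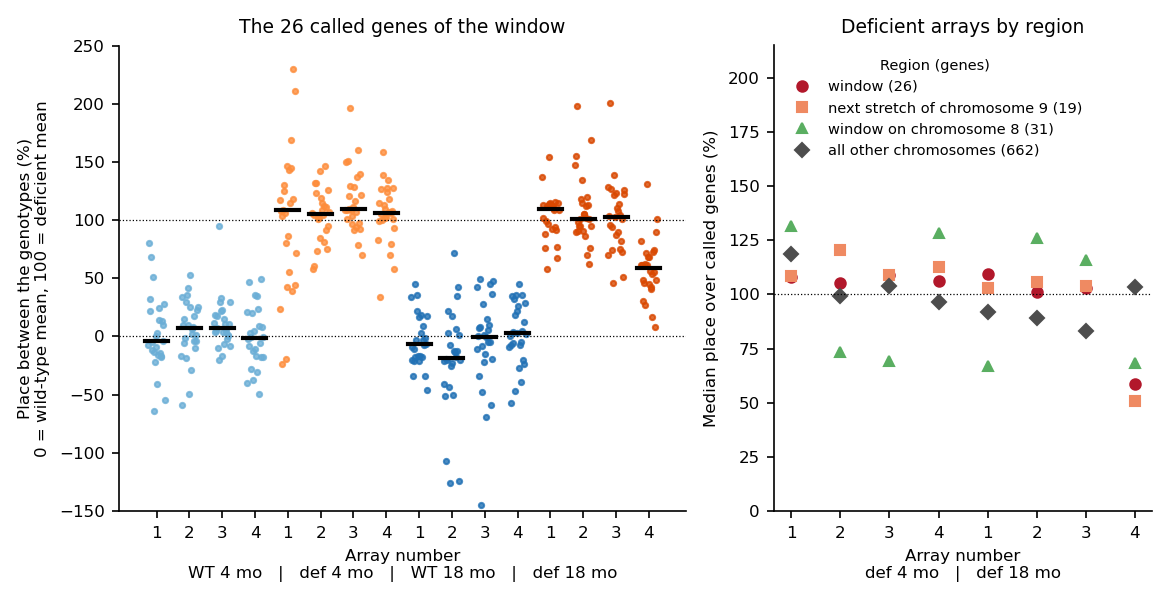
Left, place of each of the 16 arrays between the genotypes (percent, linear signal; 0 is the wild-type mean and 100 the deficient mean, without the array itself) at the 26 called members, with 1 point per member and a black bar at the median; 2 points lie outside the plotted range of -150% to 250%. Right, medians of the 8 deficient arrays at called genes of 4 regions, where old deficient array 4 has 58.5% in the window and 103.5% on all other chromosomes. The last region holds every called gene not placed on chromosome 9.

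With array 4 left out, the old genotype difference was larger at 25 of the 26 called members, and its median size went from 0.82 to 0.94. The number of members called at 18 months was 18 with it and 18 without it, with 16 called both ways. Over all genes, 338 were called at 18 months with array 4 and 207 without it. Over the 26 members the median SD within the old deficient group was 0.21 with all 4 arrays and 0.12 without array 4. In the young deficient group it was 0.26 with all arrays and 0.12 without array 1.

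The genotype comparison asks which transcripts differ between brains with and without the transporter. At 4 months 17 of 119 members were called, 6 higher and 11 lower in deficient brain, where 1.53% of all genes tested were called (0.669% higher, 0.86% lower). At 18 months 18 were called, 8 higher and 10 lower, beside 1.47% of all genes (0.912% higher, 0.556% lower). In the average over both ages 26 were called, 12 higher and 14 lower, beside 3.19% (1.65% higher, 1.53% lower), and 12 of the 26 were called at each age alone. All 26 had the same sign at both ages. Without array 1 of the young wild type, 11 members were called at 4 months, and the calls over all genes went from 352 to 108. These counts restate how the window was chosen, and nothing is read from them.

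The members' differences were spread to both sides of 0. The median averaged difference was 0.01 over the members and 0.02 over all genes, while the median absolute difference was 0.14 against 0.10. A difference of more than 2-fold was seen for 11 members, 2 higher and 9 lower, beside 0.89% of all genes, 125 higher and 80 lower. Of the 9, 3 passed the filter through wild type alone, where they are high (Tmprss4 and the clones TC1624885 and C030014I23Rik), and had to be lower. The arrays of the genotypes did not overlap at 4 months for 30 members (9.44% of all genes), at 18 months for 28 (8.09%), and over 8 against 8 arrays for 15 (0.955%), all 15 of them called.

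**Figure D2:**
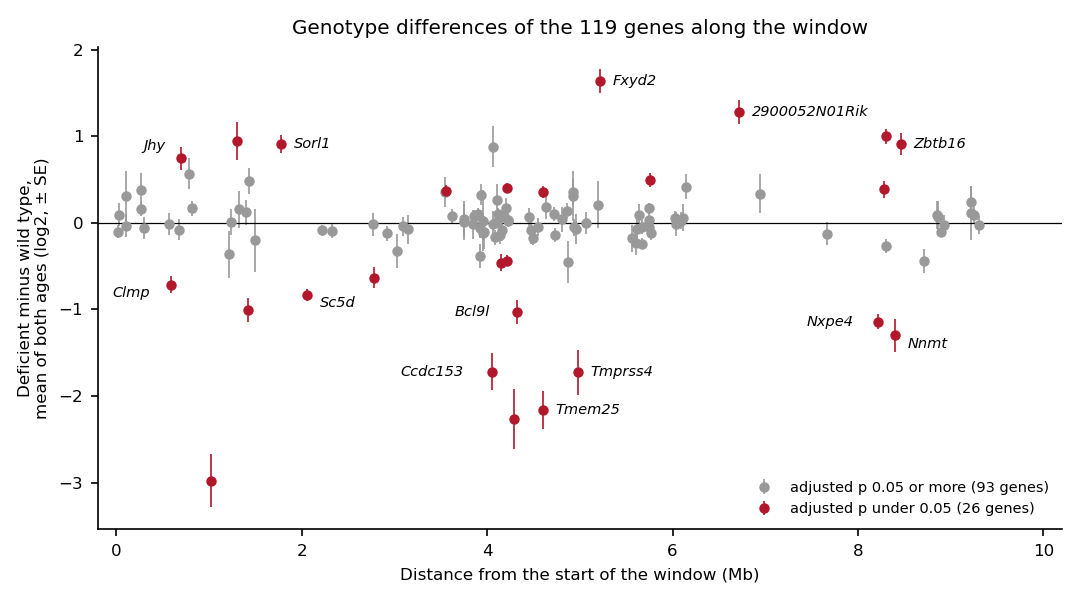
Averaged genotype difference of the 119 members (log2, deficient minus wild type, ± SE) by distance from the start of the window in Mb, with the 26 called members in red. Higher and lower members are mixed along the window, from Clmp (-0.71) near its start to Zbtb16 (0.91), and most of the 119 lie near 0.

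Among membrane proteins, Tmem25, a transmembrane protein of the immunoglobulin superfamily, had the largest difference of any member with a gene symbol. In young wild type its level was 3.78, 3.86, 3.98 and 4.18 on arrays 1 to 4, and in young deficient 1.21, 1.75, 1.65 and 1.66. In the old groups it was 3.73, 4.04, 3.77 and 3.99 in wild type and 1.48, 1.39, 1.60 and 3.31 in deficient. The genotypes did not overlap at either age, and array 4 of the old deficient lay closer to wild type than to the other 3 arrays of its group. The averaged difference was -2.16 ± 0.22, a 4.47-fold lower signal. The old difference was -1.94 ± 0.32 with all arrays and -2.39 ± 0.14 without array 4, beside -2.38 ± 0.32 at 4 months.

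Tmprss4, a membrane-bound serine protease, was dim. Its probe was well above background on all 8 wild-type arrays but on 1 array of each deficient group. Wild-type levels ran from -4.70 to -4.20, and young deficient levels were -7.68, -6.30, -5.87 and -6.48. The old deficient arrays read -6.31, -6.04, -6.36 and -4.66, so the array above background there was array 4, within the range of wild type and at a place of 16.5%. The fitted averaged difference was -1.73 ± 0.26 and was -0.53 with another background correction (normexp); most of the deficient signals lay near background and the probe passed the filter through wild type alone, so neither value is a measured size. The other 3 membrane proteases measured, Bace1, Pcsk7 and Tmprss5, were not called. Bace1, which makes the first cut of the amyloid precursor, had -0.24 ± 0.07, and its arrays did not overlap at 4 months.

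Fxyd2, the gamma subunit that tunes the sodium-potassium pump, had the largest difference among members that were higher. Its level was 0.94, 1.58, 1.47 and 1.61 in young wild type and 3.50, 2.86, 3.31 and 2.74 in young deficient. At 18 months it was 1.31, 1.54, 1.25 and 1.23 in wild type and 3.11, 3.19, 2.79 and 2.54 in deficient. Every deficient array lay above every wild-type array, and array 4 was the lowest of its group. The averaged difference was 1.64 ± 0.14, or 3.12-fold. A second probe that overlaps the first by 39 bases gave 1.62 ± 0.11.

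Counts by list, here and below, are of genes in a window where 21.8% of members were called, and nothing is read from them. Of 10 adhesion molecules measured, 0 were higher and 1 was lower in the averaged comparison (1.65% and 1.53% of all genes). The lower one was Clmp, a relative of the coxsackie and adenovirus receptor that sits at cell junctions. Clmp read 0.99, 1.04, 0.90 and 1.13 in young wild type and 0.81, 0.22, 0.20 and 0.40 in young deficient. In old wild type it read 0.78, 1.05, 0.72 and 1.0, and in old deficient -0.04, -0.13, 0.04 and 0.40. The genotypes did not overlap within either age, and young deficient array 1 was nearest to wild type. Averaged over age, the difference was -0.71 ± 0.10. Ncam1 (-0.03 ± 0.10) and Cadm1 (-0.13 ± 0.13), the large adhesion molecules of neurons in this list, were not called.

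Of 8 genes of metabolism and the endoplasmic reticulum, 1 was higher and 2 were lower (1.65% and 1.53% of all genes). Sc5d, an enzyme of the last steps of cholesterol synthesis, had little spread within groups. Its level was 2.40, 2.38, 2.43 and 2.38 in young wild type, 1.25, 1.32, 1.35 and 1.56 in young deficient, 2.47, 2.25, 2.33 and 2.36 in old wild type, and 1.56, 1.60, 1.80 and 1.90 in old deficient. All 8 deficient arrays lay below all 8 wild-type arrays. The difference was -1.03 ± 0.10 at 4 months, -0.64 ± 0.10 at 18 months and -0.83 ± 0.07 on average.

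Nnmt, which methylates nicotinamide, was -3.90, -3.85, -3.91 and -3.66 in young wild type and -4.13, -5.46, -5.38 and -4.82 in young deficient. It was -3.37, -3.03, -3.98 and -3.90 in old wild type and -5.22, -4.84, -5.39 and -4.77 in old deficient. The 8 deficient arrays again lay below the 8 of wild type, with young deficient array 1 close to them. The averaged difference was -1.30 ± 0.19, and it was -0.59 with normexp.

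Slc37a4, which carries glucose-6-phosphate into the endoplasmic reticulum, and Trappc4, a subunit of a vesicle-tethering complex, have probes 872 bases apart on opposite strands and differed in opposite directions. Slc37a4 ran from 1.83 to 2.03 in wild type and from 2.14 to 2.46 in deficient, a difference of 0.40 ± 0.06. Trappc4 ran from 3.84 to 4.11 in wild type and from 3.33 to 3.68 in deficient, a difference of -0.44 ± 0.06. Neither pair of ranges overlapped.

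Sorl1 is a receptor that sorts the amyloid precursor protein between compartments. With Trappc4, it was 1 of 2 called genes among 8 of amyloid processing and endosomal sorting (3.19% of all genes called). The probe that represents it read 3.07, 3.13, 3.27 and 3.22 in young wild type and 4.14, 4.26, 4.15 and 4.13 in young deficient. At 18 months it read 2.95, 2.96, 3.68 and 3.14 in wild type and 4.02, 4.04, 4.24 and 3.71 in deficient. The 8 deficient arrays lay above the 8 of wild type, with array 4 of the old deficient just above array 3 of the old wild type. The averaged difference at this probe was 0.91 ± 0.10, and the other probe of the gene, described further on, had the opposite sign.

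Of 11 genes of chromatin, transcription and RNA, 2 were higher and 1 was lower (1.65% and 1.53% of all genes). Zbtb16, a zinc finger transcription factor, read 0.90, 1.84, 1.5 and 1.40 in young wild type and 2.29, 2.52, 2.29 and 2.20 in young deficient. In old wild type it read 1.77, 1.37, 2.05 and 1.61, and in old deficient 2.53, 2.81, 2.62 and 2.48. The genotypes did not overlap, and the difference was 0.91 ± 0.18 at each age. Here array 4 of the old deficient was placed with the deficient arrays, at 100.8%.

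Bcl9l, a coactivator of beta-catenin, was lower. It read -1.84, -2.00, -1.84 and -1.72 in young wild type, -2.32, -3.01, -3.22 and -3.20 in young deficient, -1.72, -1.55, -1.82 and -2.16 in old wild type, and -2.98, -2.89, -2.95 and -2.33 in old deficient. All deficient arrays lay below all wild-type arrays, and the highest of them were young array 1 and old array 4. Averaged over age, the difference was -1.03 ± 0.14. Rexo2, an exonuclease of mitochondrial RNA, had 0.39 ± 0.10 with overlapping arrays at 18 months, and its call was lost when any 1 of 13 of the 16 arrays was left out.

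Among 5 genes of cilia and centrosomes, 1 was higher and 1 lower (1.65% and 1.53% of all genes). Ccdc153, a coiled-coil protein found in cells with motile cilia, read 1.70, 0.90, 0.98 and 1.37 in young wild type and 0.07, -0.50, -0.66 and -0.78 in young deficient. At 18 months it read 0.90, 1.32, 1.61 and 1.09 in wild type and -0.32, -0.98, -1.14 and 0.43 in deficient. All deficient arrays were below all wild-type arrays, and array 4 was the highest of its group. The averaged difference was -1.72 ± 0.22, or 3.29-fold, with -1.70 ± 0.31 at 4 months and -1.73 ± 0.31 at 18 months.

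Markers of ciliated ependymal cells were set beside Ccdc153. Of 10 listed, 9 were measured and all 9 were well above background on all 16 arrays; Spag17 was not kept. Averaged over age, 8 of the 9 were lower in deficient brain, 0 were called, and their median difference was -0.19. Their summed level ran from 3.13 to 3.78 in young wild type, 2.94 to 3.14 in young deficient, 2.92 to 3.47 in old wild type and 2.85 to 3.30 in old deficient. At 18 months, where Ccdc153 differed as much as at 4 months, the markers' median difference was -0.06, against -0.32 at 4 months. In whole brain, fewer cells of a type and less RNA per cell cannot be told apart, and the part of ependymal cells in the Ccdc153 difference was not tested. Jhy, a gene of motile cilia named for juvenile hydrocephalus, was higher by 0.75 ± 0.13, with levels of -3.65 to -2.52 in wild type and -2.63 to -2.15 in deficient that overlapped between single arrays.

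Nxpe4, of the neurexophilin-like family, was in no list. It read -0.95, -0.79, -0.86 and -0.74 in young wild type and -2.29, -2.17, -1.95 and -2.11 in young deficient. It read -0.85, -0.78, -1.23 and -0.73 in old wild type and -1.87, -2.01, -2.01 and -1.64 in old deficient. The 8 deficient arrays lay below the 8 of wild type, with an averaged difference of -1.14 ± 0.09, or 2.20-fold.

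**Figure D3:**
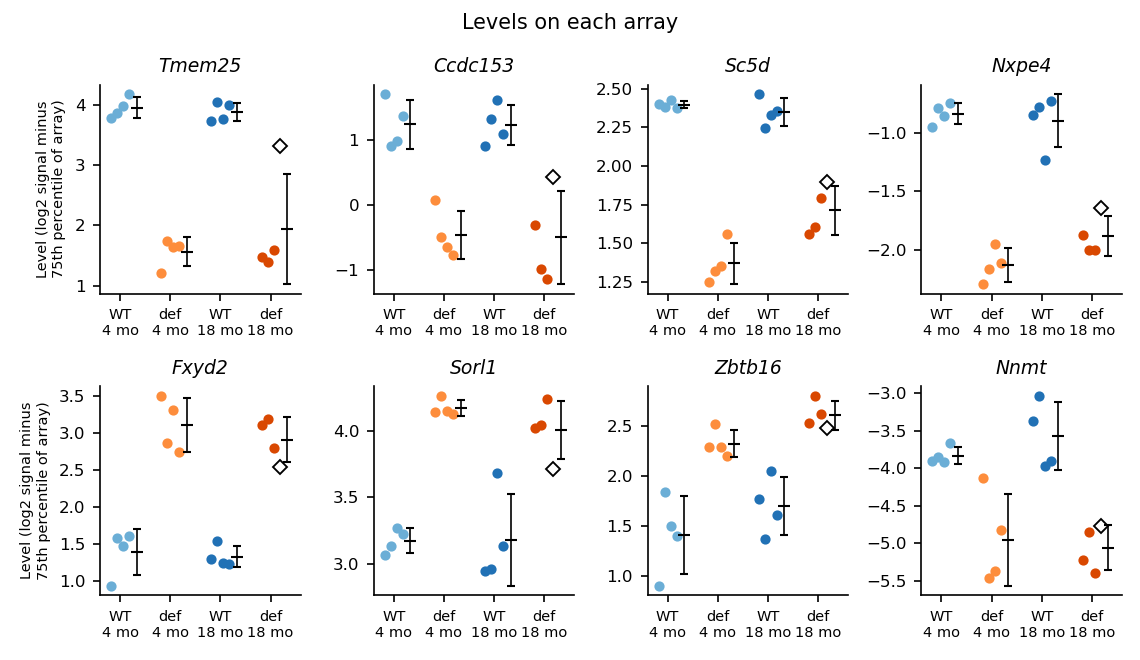
Levels (log2, relative to the 75th percentile within each array) of 8 members on each array, in wild type (WT) and Slc5a8-deficient (def) brain at 4 and 18 months; circles are arrays, the open diamond is old deficient array 4, and the bars beside them are the group mean ± SD (n = 4). Levels compare arrays within a gene, not genes with each other. For Tmem25 the diamond is at 3.31, above the other 3 arrays of its group at 1.39 to 1.60.

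Members with a clone or model name made up 9 of the 26 calls, and 2 of these were dim and passed the filter through wild type alone, so they have bounds and no place in an order of size. The clone TC1624885 ran from -4.49 to -3.62 in wild type and was at -7.38, -7.05, -7.42 and -8.38 in young deficient, where 0 of 4 arrays passed the background flag. That puts it at least 3.31-fold lower at 4 months, the bright group's mean against a floor set by the lowest signals well above background. On the old deficient arrays it was at -7.96, -6.15, -6.96 and -5.18, and array 4 was the only one above background. C030014I23Rik, at least 1.67-fold lower at 4 months, had the same pattern, with -7.73, -7.34, -8.47 and -5.80 in old deficient and only array 4 above background. These 2 and the 3 model names below were chosen after their values were seen.

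2900052N01Rik, a non-coding transcript whose probe sequence is given above, was higher. It read -0.34, -0.05, -0.02 and -0.09 in young wild type and 1.97, 1.24, 1.13 and 1.14 in young deficient. It read -0.12, 0.57, -0.06 and 0.10 in old wild type and 1.27, 1.40, 1.16 and 0.90 in old deficient. The genotypes did not overlap, and the averaged difference was 1.28 ± 0.14, or 2.43-fold.

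Separate probes of the same member differed more in their genotype differences than in their age differences. The window was chosen for its genotype differences, which partly fixes this in advance, so the values are a description only. Of the members, 31 had 2 or more kept probes in the window, 72 probes in all. The median range between a gene's probes was 0.28 for the averaged genotype difference, beside 0.13 over 6808 such genes on the array. For the averaged age difference it was 0.12, beside 0.13. A range above 1 was seen for 4 of the 31 (12.9%; 1.19% of all genes) in genotype and for 0 (0.338% of all genes) in age. Of 10 members with at least 1 called probe, all probes were called in 3, and in 2 of the 10 probes were called in both directions. Over all genes this was so for 48 and for 10 of 382. Counting every kept probe, 36 of 160 in the window were called, or 22.5%, 16 higher and 20 lower, beside 3.13% of all probes. Taking only the probe that represents each gene, the median GC content was 45% for the 26 called members and 45% for the 93 not called.

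Ift46, a subunit of the trains that carry cargo along cilia, is the widest case. Its first probe was higher in deficient brain by 0.36 ± 0.07, with 3.31 to 3.80 in wild type and 3.72 to 4.01 in deficient. The second probe, further along the plus strand, was lower by -2.38 ± 0.19. It read -1.94, -2.08, -2.07 and -2.00 in young wild type, -4.43, -5.26, -4.88 and -4.48 in young deficient, -2.47, -2.09, -2.06 and -2.66 in old wild type, and -5.05, -4.42, -4.49 and -3.41 in old deficient. No deficient array reached the wild-type range at the second probe, and array 4 of the old deficient was the nearest.

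Rps25, a protein of the small ribosomal subunit, showed the same kind of split. The first probe, which spans an intron, gave 0.02 ± 0.07. The second gave -1.41 ± 0.20, with -2.00, -2.15, -2.14 and -1.97 in young wild type and -3.35, -3.28, -3.38 and -3.55 in young deficient. In the old groups the second probe read -2.31, -2.17, -0.70 and -2.04 in wild type and -3.57, -3.33, -3.64 and -2.66 in deficient. The levels at the first probe overlapped throughout, and those at the second did not overlap at all.

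Sorl1 was called in both directions in the fit over all kept probes, 0.91 ± 0.11 at the second probe, which represents the gene, and -0.34 ± 0.08 at the first. At the first probe it read 3.36, 3.54, 3.40 and 3.49 in young wild type and 2.99, 3.03, 2.93 and 3.16 in young deficient, then 3.40, 3.15, 3.35 and 3.60 in old wild type and 3.07, 2.97, 3.1 and 3.36 in old deficient, without overlap at 4 months and with overlap at 18. C2cd2l, a lipid-transfer protein at contacts of the endoplasmic reticulum with the plasma membrane, gave 0.10 ± 0.08 and -0.79 ± 0.09. Clmp gave -0.71 ± 0.10 and -0.14 ± 0.09. In the other direction, Ubash3b gave 0.17 ± 0.09 at the probe that represents it and a called 0.36 ± 0.08 at the other. A long intergenic non-coding RNA, added after its values were seen, gave 0.16 ± 0.08 at the probe that represents it. Its other probes were called at 1.21 ± 0.22 and 1.52 ± 0.34, the last above background on 10 of 16 arrays. Cep164, a protein of the distal appendages of centrioles that was added after its values were seen, gave -0.07 ± 0.13 at the probe that represents it and -0.75 ± 0.08 and -0.54 ± 0.08 at a pair of overlapping probes. For these genes, whether the gene is higher, lower or level depends on the probe taken. The probes were not equally bright. Young wild-type means at the representing and the other probe were 3.56 and -2.02 for Ift46, 5.57 and -2.07 for Rps25, and 5.60 and -2.20 for C2cd2l. They were 0.97, -1.16 and -0.89 for Cep164, and closer for Sorl1, at 3.17 and 3.45.

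**Figure D4:**
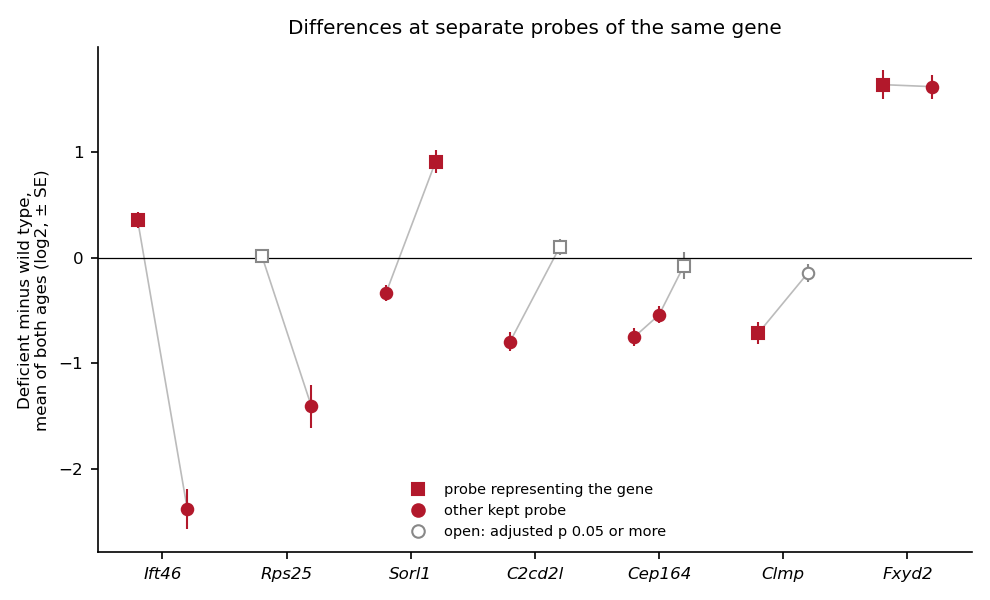
Averaged genotype difference (log2, deficient minus wild type, ± SE) at each kept probe of 7 members, ordered by position; squares are the probes that represent the gene, filled symbols have an adjusted p under 0.05, open symbols do not. The probes of Ift46 differ most, 0.36 against -2.38, and the overlapping probes of Fxyd2 are alike at 1.64 and 1.62.

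Called members were spread along the window. Of 118 adjacent pairs, both genes were called in 7. In 6 of these 7 the signs differed: Sorl1 and Sc5d, Slc37a4 and Trappc4, Ift46 and Tmem25, Nxpe4 and Rexo2, Gm5617 and Nnmt, and Nnmt and Zbtb16. The calls hold 12 higher and 14 lower members, and pairs were not counted over all genes. The count rests on the genotype values by which the window was chosen, and nothing is read from it. In single Mb the called members numbered 2 of 13, 4 of 10, 2 of 6, 1 of 17, 9 of 36, 2 of 14, 1 of 7, 0 of 1, 5 of 11 and 0 of 4. The members just inside the edges were Zfp202 (-0.10 ± 0.07) and Scn3b (-0.03 ± 0.13) at the lower and Ttc12 (0.09 ± 0.10) and Ncam1 (-0.03 ± 0.10) at the upper edge. Just outside were Olfr921 (0.12 ± 0.14) and AW551984 (-0.13 ± 0.08) below, and Plet1 (-0.77 ± 0.17) and Pts (-1.22 ± 0.11) above. At these named genes differences were small on both sides of the lower edge and just inside the upper one, and larger just above it.

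Along chromosome 9, the share called in the averaged genotype difference was 5.63% of 71 genes in the 10 Mb before the window, 21.8% of 119 in it, 12.9% of 147 in the next 10 Mb and 1.89% of 106 in the one after. Of 260 such windows of the genome with 20 or more genes, this one ranked 2, after the first 10 Mb of chromosome 17 with 23.6% of 89 genes. The chromosome 8 window had 18.6% of 167.

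The age comparison, which the choice of the window did not use, asks whether these genes change between 4 and 18 months. In wild type 0 members were called by limma, with 6 at an unadjusted p under 0.05 (6.35% of all genes), where 0.421% of all genes were called. In deficient brain 2 were called, both lower at 18 months, where 2.37% of all genes were called, 1.12% as lower. Averaged over genotype 0 were called (18 at an unadjusted p under 0.05, as were 14.8% of all genes; 1.61% of all genes called), and the smallest adjusted p was 0.0525. The median absolute age difference was 0.12 for the members and 0.12 for all genes.

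The 2 that fell with age in deficient brain carry model names. Gm10687 read -1.98, -2.48, -2.51 and -2.48 at 4 months and -2.83, -3.09, -3.28 and -3.11 at 18 months, a difference of -0.71 ± 0.17 (limma adjusted p = 0.0453). Gm5617 read 3.11, 2.56, 2.82 and 2.76 and then 2.43, 2.42, 2.21 and 2.19, a difference of -0.50 ± 0.12 (limma adjusted p = 0.0481). In both the ages did not overlap, 4 of 4 old arrays being below 4 of 4 young ones. Both calls lay close to the threshold: Gm10687 lost its call when any 1 of 11 of the 16 arrays was left out (limma adjusted p from 0.0349 to 0.124) and Gm5617 when any 1 of 13 was (0.0353 to 0.122), and the 2 were lost together without each of 8 arrays. In wild type the age differences were -0.29 ± 0.17 and -0.08 ± 0.12. Gm5617 was also 1.0 ± 0.09 higher in deficient brain, averaged over age.

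After 2 members with coordinate names that narrowly missed the threshold, the next with a gene symbol in deficient brain were Sc5d (0.34 ± 0.10, limma adjusted p = 0.0695), Crtam, an adhesion molecule of activated lymphocytes (-0.88 ± 0.25, limma adjusted p = 0.0775), and Apoc3, an apolipoprotein of triglyceride-rich particles (0.65 ± 0.19, limma adjusted p = 0.09). These 3 did not pass the test. For Apoc3 the sign depended on the probe. Its averaged age difference was 0.32 ± 0.14 at the probe used and -0.27 ± 0.20 at its other kept probe. Sc5d lay at 1.25 to 1.56 at 4 months and 1.56 to 1.90 at 18 months. Crtam was at 3.44, 2.78, 2.52 and 3.53 in young deficient and at 2.55, 1.82, 2.11 and 2.28 in old deficient, so the ages overlapped by 1 pair of arrays. Averaged over genotype, the receptor channel Htr3a had 0.38 ± 0.14 (limma adjusted p = 0.197), the ubiquitin ligase Cbl 0.50 ± 0.19 (limma adjusted p = 0.234) and the mitochondrial innate immune protein Nlrx1 -0.37 ± 0.15 (limma adjusted p = 0.246).

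Of the 17 members with a gene symbol that were called in the averaged genotype difference, 0 were called in an age contrast. Tmem25 had -0.07 ± 0.32 in wild type and 0.38 ± 0.32 in deficient brain, Ccdc153 -0.0047 ± 0.31 and -0.04 ± 0.31, and Fxyd2 -0.07 ± 0.20 and -0.20 ± 0.20. The interaction, the age difference in deficient minus that in wild type, was called for 0 members by limma, with 9 at an unadjusted p under 0.05 (10.6% of all genes), where 0.187% of all genes were called. Its smallest adjusted p over the members was 0.218. For Sc5d, whose genotype difference was -1.03 young and -0.64 old, the interaction was 0.39 ± 0.14 (limma adjusted p = 0.325).

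**Figure D5:**
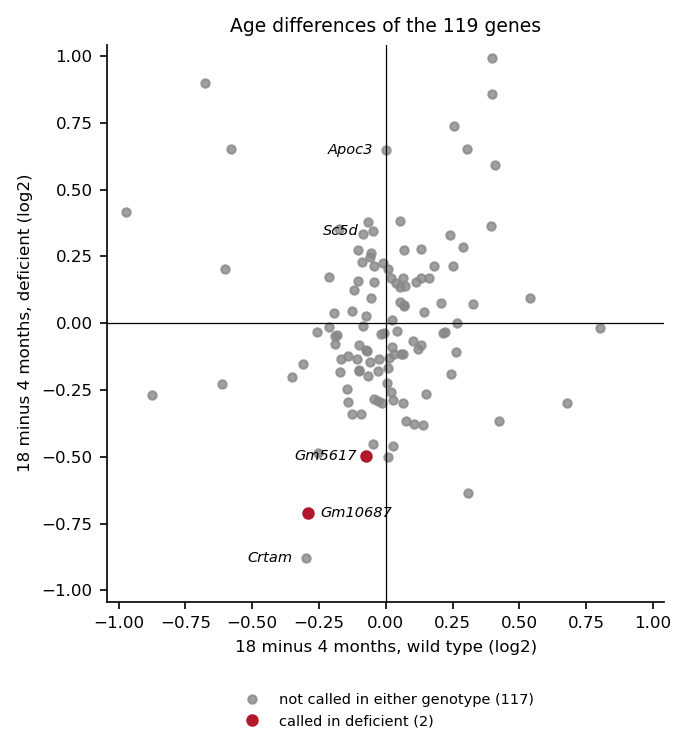
Age difference (log2, 18 minus 4 months) of each of the 119 members in deficient brain against that in wild type; the 2 called members, Gm10687 (-0.71 in deficient) and Gm5617 (-0.50), are in red, and 117 were called in neither genotype. Most members lie near 0 on both axes.

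Several gene groups known for roles in brain lie in the window. In the age contrasts and the interaction, each of the 10 lists of genes by role had 0 calls by limma, where 0.421% of all genes were called in wild type, 2.37% in deficient brain, 1.61% in the average and 0.187% in the interaction. The lists were written with earlier results of the series known. Among lists not yet described, 1 of 7 ion channels and receptors of neurons had an unadjusted p under 0.05 in the averaged age difference. So did 2 of 5 T cell and immune genes, 1 of 7 ubiquitin genes and the 1 measured apolipoprotein, Apoc3, at the probe that represents it. The share of all genes at that limit was 14.8%, and nothing is read from these counts. Averaged genotype differences of genes in these lists are given as a description. The sodium channel subunit Scn3b had -0.03 ± 0.13, the kainate receptor Grik4 -0.09 ± 0.08, the dopamine receptor Drd2 0.24 ± 0.19 and Htr3a -0.44 ± 0.14. Crtam had 0.57 ± 0.18, the ubiquitin genes ran from -0.14 to 0.10, and Apoc3 had -0.01 ± 0.14.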

How the data were processed

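Whole-brain RNA was labelled with Cy3, per the labels' protocols. Per the file headers, the authors read spot intensity with Agilent Feature Extraction 10.7.3.1; its processed signal has the background removed, and it gave the flags, 0 or 1, for spots well above background and outliers. The deposited value table holds log2 values; its scale was read from the values (each column ranks as the raw median signal does, with medians from 6.61 to 6.62), and its steps and centring are unknown, though limma is named in the submitters' processing notes. It served as an alternative only.

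Levels are log2 processed signals from which the 75th percentile within each array was taken off. Outlier and control spots were left out and spots of a probe averaged. Probes well above background on all 4 arrays of a group were kept (33075 of 55681), 1 per gene name, a probe in the window before others and then the brightest; for 2 members, Atp5l and Rnf26, a brighter probe lies elsewhere. limma 3.58.1 (R 4.3.3, with data.table at 1.17.8) fitted 4 group means to all 16 arrays, with 12 residual and 2.84 prior degrees of freedom, 7 contrasts, and Benjamini-Hochberg adjustment over 23032 genes. The fit was tested on simulated data. The number of arrays limits the precision. Arrays of 1 group are said to be biological replicates, with no animal named, and p-values cover only the spread seen between them.

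The members and lists were chosen with earlier results of these data known. Named were Tmem25 and Ccdc153, called members with a gene symbol, up to 4 members of each list by age difference, the genes at the edges, and genes whose probes differ in sign; others are marked in the text. Names matched RefSeq's GRCm38.p6 gene list for 82 members, and 7 symbols were updated. Some lists share genes, such as Cbl and Bace1. The strain and age tags of the labels hold each other's values, and groups follow the titles. Alternatives were normexp (offset 50), quantile normalization, the deposited values, other filters, the mean of a gene's probes, other window edges, the replicate number as a block, and leaving out each array. Results for some genes of the window are not reported here.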

Additional observations from a re-analysis of the deposited data

Results flagged for a closer look

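Among 51 named members, each tested in 4 groups, 20 of 204 groups held 1 array whose gap to the nearest of the other 3 was above Dixon's critical value as a share of the group's range. Chance gives about 1 in 20, and genes measured on the same arrays are not independent. Array 1 of the young deficient, which stood apart over the whole array, made up 10 of the 20 and array 4 of the old deficient 5.

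Array 4 of the old deficient was at 3.31 for Tmem25 (others 1.39 to 1.60), -2.33 for Bcl9l (others -2.98 to -2.89), 3.72 for Ift46 (others 3.87 to 3.88), 1.89 for Rexo2 (others 2.13 to 2.17) and -3.61 for Mpzl3, an adhesion molecule of epithelia that was not called (others -5.43 to -5.20). In each of the first 4 it was displaced toward wild type.

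Array 1 of the young deficient was at 2.85 for Rexo2, 4.83 for Mcam (others 2.23 to 2.63), 0.31 for Cadm1 (others 1.12 to 1.20), -0.47 for Nlrx1, 3.66 for Vps11, 0.28 for Pafah1b2, 2.33 for Arcn1, 0.36 for Ttc12, -1.98 for Gm10687 and 1.97 for 2900052N01Rik. It was the highest of its group at 7 of these and the lowest at Cadm1, Pafah1b2 and Arcn1.

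The other 5 were array 2 of the young deficient at 4.26 for Sorl1 and -3.81 for Mll1, array 1 of the young wild type at -2.40 for Hyou1, array 3 of the old wild type at 4.04 for Trappc4 and array 4 of the old wild type at 0.56 for Cep164. The causes were not tested.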

How the results depend on the processing

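The counts of members called between genotypes were within 1.5 times of 17 (4 months), 18 (18 months) and 26 (averaged) under each alternative other than leaving out an array. The averaged count ran from 21 with normexp to 31 with the mean of a gene's probes, and was 35 with edges at 39 and 51 Mb and 24 with edges at 41 and 49 Mb. Of all genes, 588 were called with normexp and 826 with the mean of the probes, beside 734 in the fit reported. Leaving out 1 array gave 11 to 19 at 4 months (11 without array 1 of the young wild type), 12 to 22 at 18 months (12 without array 2 of the old deficient) and 24 to 28 averaged. The counts over all genes then ran from 108 to 408, from 178 to 517 and from 500 to 941. Of 18 named members with an averaged call, 17 were called under every alternative run and without each array, the exception being Rexo2. Tmprss4 does not pass the filter on all 16 arrays and has no value there; Ift46 is among the 17 with its sign turned under 1 alternative, as follows.

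With the mean of a gene's kept probes, which takes in the second probes, Ift46 turned from higher to lower (-1.16 at 4 months, -0.86 at 18 months, -1.01 averaged), as did C2cd2l (-0.35) and Rps25 (-0.69) in the average, and Sorl1 was 0.29.

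The count of members called with age was small and moved with the setting, as did the count over all genes. In deficient brain, 2 in the fit reported, it was 1 with normexp, 4 with quantile normalization, the deposited table or the filter on all 16 arrays, 0 without a filter and 0 with the replicate block, and 0 to 4 without single arrays (0 without any 1 of 8 arrays, namely each of the 4 old deficient arrays, young deficient arrays 1 and 4 and young wild-type arrays 1 and 3). Averaged over genotype, 0 in the fit reported, it was 2 with quantile normalization or the deposited table, 1 with the mean of the probes, 1 with the replicate block, and 0 to 1 without single arrays. In wild type and in the interaction it was 0 throughout. The count over all genes in deficient brain was 546 in the fit reported. It was 359 with normexp, 729 with the deposited table, 221 without a filter and 282 with the replicate block. Without single arrays it ran from 156 to 657. The causes were not tested.

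The replicate numbers did not pair the arrays: deviations of 24 same-numbered pairs correlated from -0.44 to 0.27. With the number as a block, 15, 14 and 25 members were called at 4 months, at 18 months and averaged. Of all genes, 197, 235 and 542 were called with the block, in the same order.

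The median place of array 4 of the old deficient, tried in ways chosen after seeing the data, was 61.6% on the log2 scale, 55.1% over the 11 called members above 2-fold, 57.7% over 36 called probes and 55.9% over the 27 members called without that array.

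Probes below background give only bounds, and slide and genotype cannot be told apart.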
